A study of Mus musculus with 2 samples.

Results

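The circadian clock genes described here are 10 genes listed by name: the activators Arntl and Clock, the repressors Per1, Per2, Per3 and Cry1, the nuclear receptor genes Nr1d1 and Nr1d2, and the output genes Dbp and Usp2. Each was looked up by its symbol in a deposited table of 12631 gene rows from mouse small intestinal epithelium. A row was found for 9 of the 10, and Per3 had none, under its symbol or any RefSeq synonym. The table holds 2 libraries, each from 1 C57BL/6 mouse aged 8 weeks: a control labelled wild type and a knockout labelled Myh9-/-. Both mice had received tamoxifen daily on 5 days, which induced the deletion in the knockout, and RNA was taken at day 5. Myh9 encodes a non-muscle myosin II heavy chain. The driver of the recombinase, the alleles that the control carries, the deleted exons, the hour of tissue collection and the light and feeding schedule are details that the sources used here do not give. With 1 mouse a genotype, genotype, individual mouse and hour of collection cannot be told apart. No value below has a replicate error, no test or p-value is given, and every difference is between these 2 libraries.

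In the mammalian clock, the proteins of Arntl (BMAL1) and Clock pair and activate genes that carry an E-box, among them the Per and Cry genes, whose products return to repress that pair. A connected loop runs through Nr1d1 and Nr1d2, which encode the repressors REV-ERB alpha and beta, and through the ROR receptors, which compete for the same element in the Arntl gene. A further loop runs through DBP and its relatives, which activate genes at D-boxes, and NFIL3, which represses them. Epithelial cells of the mouse intestine run this clock, and genes of nutrient transport and lipid uptake cycle with it.

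RefSeq promoter windows on GRCm38.p6, from 250 bases before to 50 bases after a start site, were found for 9 of the 10 genes, 13 windows in all. Per2 had no entry. They were searched on both strands for the E-box (CACGTG), the D-box (TTATGTAA or TTATGCAA) and a ROR element core (TAGGTCA or TGGGTCA with an A 3 bases before the T). The E-box stood in 2 of the 13 windows and in 7.15% of all 32851 promoter windows. The D-box stood in 2 of the 13 and in 1.66% of all, and the ROR element core in 1 of the 13 and in 1.60% of all. The letters of that core were chosen with the sequences in view, so its match is not read against that share. Some of the 13 windows belong to the same gene, and the 2 Arntl windows overlap, of which 1 held the core. The windows shown are those that hold a match to these letters and whose gene has an expression row. Letters matched to the E-box, the D-box or the ROR element core are in capitals, and a match is a description of these letters only. The Per1 window (chr11:69098699-69098998, plus strand) holds an E-box that begins 166 bases before the start site and a D-box that begins 24 bases before it. The Cry1 window (chr10:85185005-85185304, minus strand) holds an E-box 60 bases before the start site. The Arntl window (chr7:113207261-113207560, plus strand) holds a ROR element core 27 bases after the start site.
Per1: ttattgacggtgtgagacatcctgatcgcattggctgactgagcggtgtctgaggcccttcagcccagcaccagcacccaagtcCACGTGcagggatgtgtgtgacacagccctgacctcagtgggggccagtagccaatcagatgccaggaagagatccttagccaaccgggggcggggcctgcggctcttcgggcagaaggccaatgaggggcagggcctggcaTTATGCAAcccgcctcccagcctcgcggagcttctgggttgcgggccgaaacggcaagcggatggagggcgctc
Cry1: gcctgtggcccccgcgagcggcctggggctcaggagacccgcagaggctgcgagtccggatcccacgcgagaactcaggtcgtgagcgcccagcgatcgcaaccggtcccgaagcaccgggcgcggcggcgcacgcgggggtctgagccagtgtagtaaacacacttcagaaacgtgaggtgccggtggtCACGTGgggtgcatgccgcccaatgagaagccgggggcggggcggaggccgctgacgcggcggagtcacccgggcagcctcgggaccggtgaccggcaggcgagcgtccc
Arntl: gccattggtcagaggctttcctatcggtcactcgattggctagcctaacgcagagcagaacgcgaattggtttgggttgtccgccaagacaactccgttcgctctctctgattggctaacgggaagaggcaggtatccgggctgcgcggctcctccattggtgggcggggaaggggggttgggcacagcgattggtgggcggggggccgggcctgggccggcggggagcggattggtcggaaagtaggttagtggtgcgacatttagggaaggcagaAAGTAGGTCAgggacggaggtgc
The Per3 window held 2 D-boxes, and no expression row accompanies them. A variant E-box (CACGTT), found in 4.68% of all windows, stood in the windows of Cry1 and Nr1d1. Its letters were also chosen with the sequences in view, and they are left in lower case in the Cry1 window above. The windows of Dbp, Usp2, Nr1d2 and Clock held none of these letters.

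Levels are the deposited values with an added 1 removed, in a unit the sources used here do not give. Whether they are scaled by transcript length is not given either, so levels of different genes are not compared with each other, and sums over cell type markers serve only to set the libraries side by side. Unless stated, folds compare levels after 1 was added back, so those of weakly expressed genes are understated. Genes that reached a level of 1 in either library were included. A difference of 1.4-fold, the threshold in the labels and a log2 fold of 0.49, counted as higher or lower. Myh9 itself was 99.5 in the control against 13.6 in the knockout, 6.89-fold lower.

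Of the 9 clock genes with a row, all included, 4 were lower in the knockout, 2 were higher and 3 lay between the thresholds. Among all 12152 included genes, 16.3% were called lower and 15.9% higher, 32.3% in all. Dbp, Usp2, Nr1d1 and Nr1d2 were the lower members, Cry1 and Per1 the higher ones, and Arntl, Clock and Per2 lay between. Log2 folds ran from -1.61 to 1.03, with a median of -0.002 against -0.0037 for all included genes. The median describes little here, because the members lie on both sides of it. None of the 9 was below 1 in either library, so none was included through 1 library alone. The plot of member levels shows both values for each gene.

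**Figure D1:**
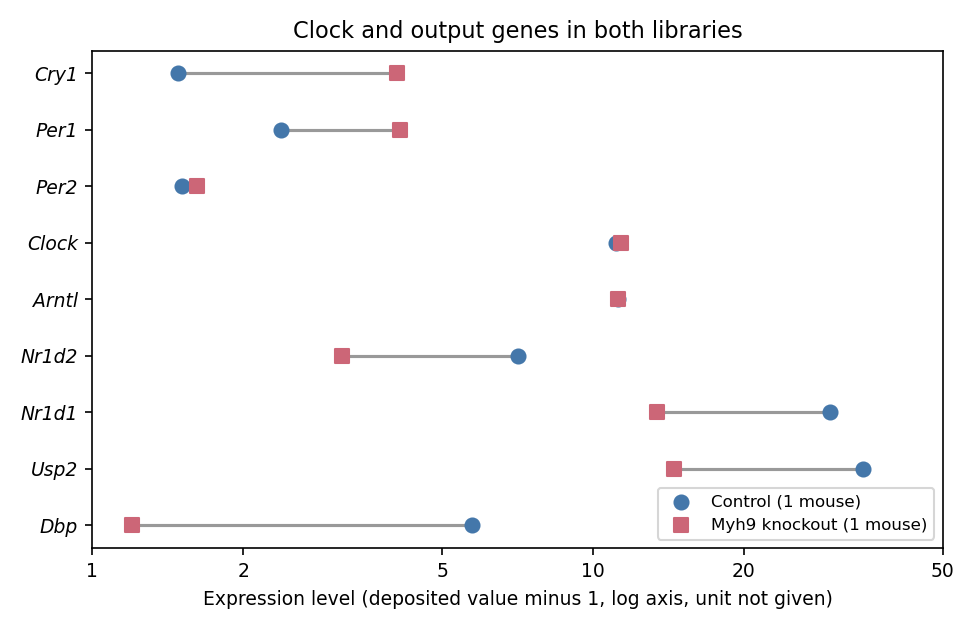
Expression level of the 9 clock and output genes with a row (x axis, log scale, unit not given) in the control library (circles) and the Myh9 knockout library (squares), 1 mouse each and no error bars. Dbp, Usp2, Nr1d1 and Nr1d2 lie to the left in the knockout, Cry1 and Per1 lie to the right, and Per2, Clock and Arntl nearly coincide.

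The pair of activator genes had nearly equal levels in both libraries. Arntl, which encodes BMAL1, was 11.2 in the control against 11.2 in the knockout. Clock, which encodes its partner, was 11.1 in the control against 11.4 in the knockout, a log2 fold of 0.04. Their paralogues were higher in the knockout. Npas2, whose product can take the place of CLOCK in mouse tissues, was 7.12 in the control against 10.8 in the knockout, 1.45-fold higher. Arntl2, which encodes BMAL2, was 0.203 in the control against 1.82 in the knockout, 2.34-fold higher, and 8.95-fold higher when nothing was added to the levels. Arntl2 was below 1 in the control and was included only through the knockout, which fixed its direction.

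The repressor genes other than the REV-ERB genes were higher or between the thresholds, and none of those with a row was lower. Cry1, which encodes the cryptochrome that represses late in the cycle, was 1.48 in the control against 4.06 in the knockout. It was 2.04-fold higher, and 2.74-fold higher when nothing was added to the levels. Its paralogue Cry2 was 1.30 in the control against 1.83 in the knockout, a log2 fold of 0.29, between the thresholds. Per1, a period gene that also responds quickly to cAMP signals and to glucocorticoids, was 2.38 in the control against 4.12 in the knockout, 1.52-fold higher. Per2 was 1.51 in the control against 1.62 in the knockout, a log2 fold of 0.06. The log2 fold of Per1 thus exceeded that of Per2 by 0.54, and that of Cry1 exceeded that of Cry2 by 0.73. Bhlhe40, which encodes DEC1, a repressor that binds E-boxes, was 17.2 in the control against 20.4 in the knockout, also between the thresholds. Ciart and Bhlhe41, further repressor genes, had no row.

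Both REV-ERB genes were lower in the knockout and by similar amounts. Nr1d1, which encodes REV-ERB alpha, was 29.7 in the control against 13.4 in the knockout, 2.14-fold lower. Nr1d2, which encodes REV-ERB beta, was 7.07 in the control against 3.16 in the knockout, 1.94-fold lower. With nothing added to the levels, Nr1d1 was 2.22-fold and Nr1d2 2.24-fold lower. Rora and Rorb had no row. The corepressor genes through which REV-ERB proteins act lay between the thresholds, with Ncor1 at 115 in the control against 112 in the knockout, and Hdac3 at 57.6 and 64.5. In such bulk samples, fewer cells of a type and less RNA per cell cannot be told apart.

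Dbp had the lowest log2 fold of the members. It encodes a PAR bZIP activator that is a direct E-box target of the clock, and it was 5.73 in the control against 1.20 in the knockout. That was 3.06-fold lower, a log2 fold of -1.61, and only 0.979% of the included genes had a lower one. With nothing added to the levels it was 4.77-fold lower. Tef, of the same family, was 6.95 in the control against 5.16 in the knockout, a log2 fold of -0.37, between the thresholds, and Hlf had no row. Nfil3, the repressor at the same D-box, was 3.08 in the control against 5.58 in the knockout, 1.61-fold higher. The log2 fold of Dbp was thus below that of Tef by 1.24 and below that of Nfil3 by 2.30.

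Usp2 encodes a ubiquitin-specific protease whose transcript cycles in many mouse tissues and whose product acts on clock proteins. It was 34.6 in the control against 14.5 in the knockout, 2.30-fold lower, and 2.52% of the included genes had a lower log2 fold. Its log2 fold of -1.20 lay between those of Dbp and Nr1d1.

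**Figure D2:**
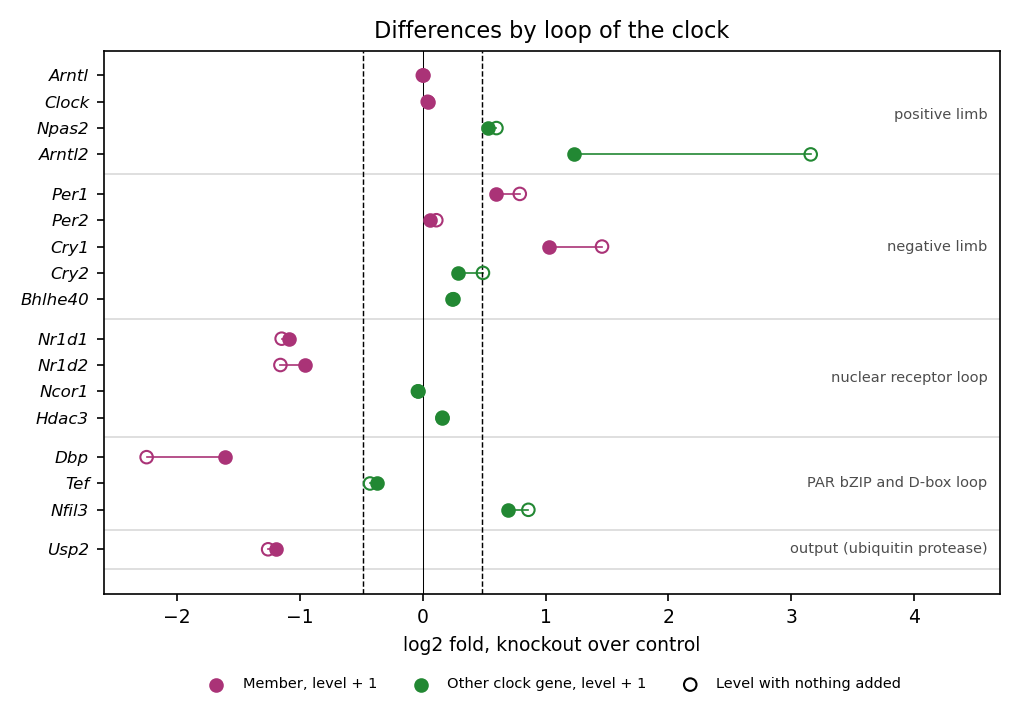
Log2 fold of the knockout over the control (x axis) for the 9 members and 8 other core clock genes with a row, by loop of the clock; filled points use level plus 1 and open points the level with nothing added, and dashed lines mark 1.4-fold. The REV-ERB genes, Dbp and Usp2 lie below the lower line, and Cry1, Per1, Npas2, Arntl2 and Nfil3 lie above the upper one.

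Of 13 other core clock genes, 8 had a row, and 3 of these were higher (Npas2, Arntl2, Nfil3) and 5 lay between the thresholds, with a median log2 fold of 0.27. None of the 8 was lower. Without Arntl2, which was included only through the knockout, 2 of 7 were higher and the median was 0.24. Of all included genes, 15.9% were higher and 16.3% lower, so counts over so few genes, by loop included, are a description only. By loop, with members counted, 2 of 4 activator genes were higher and none was lower, or 1 of 3 without Arntl2. Of the 5 Per, Cry and DEC repressor genes with a row, 2 were higher and none was lower. In the nuclear receptor loop 2 of 4 were lower and none was higher. In the D-box loop, 1 of 3 was lower and 1 was higher.

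Among included genes with a mean level of at least 1, weakly expressed ones were called somewhat more often than strongly expressed ones. Included genes with a mean level below 1 reached 1 in only 1 library. They are in none of the shares by level but count in the 32.3% called among all included genes. At a mean level from 1 to under 5, where Dbp, Cry1, Per1 and Per2 lie, 35.2% of 3477 genes were called in either direction. At a mean level from 5 to under 20, which holds Arntl, Clock and Nr1d2, the share was 29.6%. At 20 and above, which holds Usp2 and Nr1d1, it was 27.8%. At a 2-fold threshold, which 4.28% of included genes passed downward and 4.49% upward, 8.77% in all, Dbp, Usp2 and Nr1d1 were lower and Cry1 was higher.

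**Figure D3:**
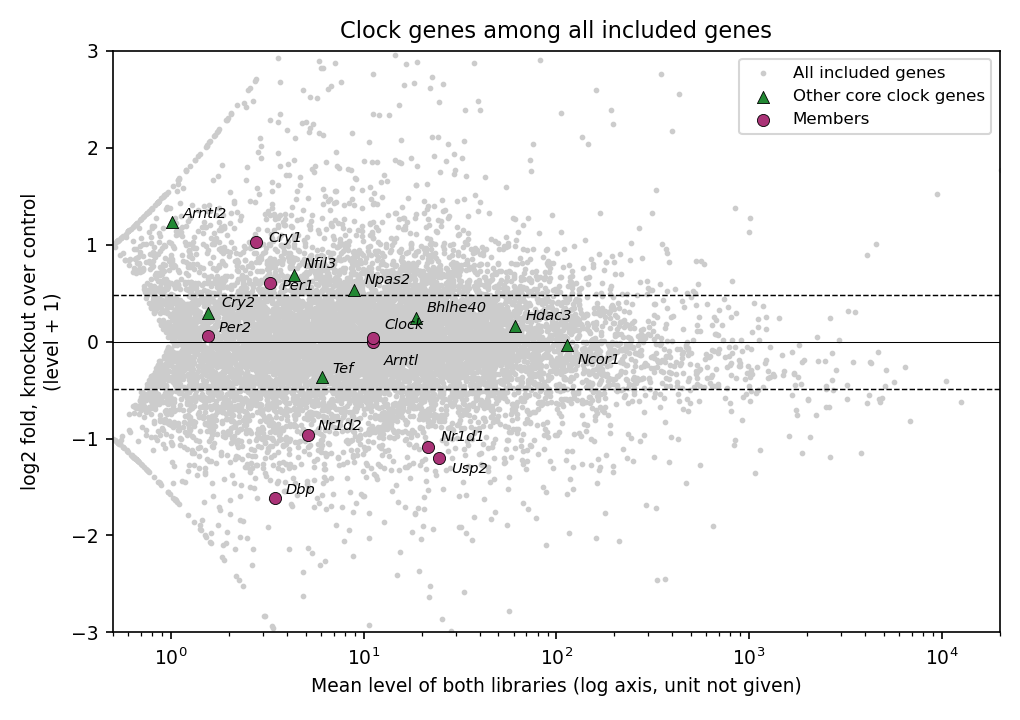
Log2 fold of the knockout over the control on level plus 1 (y axis) against the mean level of both libraries (x axis, log scale, unit not given) for all included genes (grey), members (circles) and other core clock genes (triangles); dashed lines mark 1.4-fold, and 40 genes with a log2 fold beyond 3 either way lie outside the axes. Dbp lies lowest of the members at -1.61, and Arntl and Clock lie close to 0. Reg3b has a mean level just past the right end of the x axis.

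Some members share bases with a neighbour on the opposite strand, and the sources used here do not give the strand setting, so reads from such pairs could not be told apart. Nr1d1 (chromosome 11, 98767932 to 98775333, minus strand of mm10, GENCODE M21) shares 263 of its 3077 exonic bases with Thra, the thyroid hormone receptor alpha gene. Thra was 66.3 in the control against 23.7 in the knockout, a log2 fold of -1.45. Dbp (chromosome 7, 45705088 to 45710203, plus strand) shares 539 of its 2993 exonic bases with Sphk2, a sphingosine kinase gene. Sphk2 was 25.7 in the control against 14.8 in the knockout, a log2 fold of -0.75. Both neighbours were thus lower in the knockout as well, and their part in the values of Nr1d1 and Dbp was not tested. Thra and Sphk2 were looked up for this overlap after the member values were known. Nr1d2 (chromosome 14, 18204054 to 18239127, minus strand) and Cry1 (chromosome 10, 85131700 to 85185064, minus strand) overlapped no other annotated gene, nor did Per1 (chromosome 11, 69095217 to 69109960, plus strand) or Per2 (chromosome 1, 91415982 to 91459324, minus strand). Usp2 (chromosome 9, 44067021 to 44095627, plus strand) shares 200 of its 4818 exonic bases with annotated genes that had no row. Arntl (chromosome 7, 113207465 to 113314126, plus strand) shares 33 of its 7523 exonic bases with an antisense gene that had no row, and Clock (chromosome 5, 76209868 to 76304792, minus strand) shares no exonic base with another gene.

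Most genes for regulators that modify clock proteins lay between the thresholds. Of 15 other kinases, phosphatases and ubiquitin ligases with a row, 2 were higher and 13 lay between, none of them lower, and the median log2 fold was 0.18, against 15.9% higher and 16.3% lower among all included genes. The casein kinase genes Csnk1d (32.2 in the control against 36.7 in the knockout) and Csnk1e (8.78 and 11.7), whose products phosphorylate PER proteins, lay between the thresholds. Prkaa2, a catalytic subunit of AMP-activated kinase, was 3.46 and 5.75, and the casein kinase 2 gene Csnk2a2 was 4.84 and 7.60, and these were the 2 higher members of that list. All 15 other cofactors with a row lay between the thresholds, with a median log2 fold of 0.12. Timeless, among them, was 3.88 in the control against 4.09 in the knockout. Nfil3, also on the cofactor list and called higher, is counted with the core clock genes.

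Genes known as clock outputs went both ways. Of 13 with a row besides Usp2, 6 were higher and 4 lower, 3 lay between, and the median log2 fold was 0.35, where 32.3% of all included genes were called in either direction. Noct, which encodes nocturnin, was 4.84 in the control against 12.0 in the knockout, and Pfkfb3, a regulator of glycolysis, was 9.11 and 20.2. Nampt, the rate-limiting enzyme of NAD salvage, was 11.7 and 19.0. Cdkn1a, the cell cycle inhibitor p21 and also a p53 target, was 69.1 and 114. In the other direction, Ppargc1a, a coactivator of ROR receptors, was 15.3 in the control against 5.21 in the knockout. Wee1, a cell cycle kinase gene with E-boxes in mouse, was 6.00 and 3.17. Ppara, a fatty acid sensor, was 17.8 and 9.98, and Tsc22d3 was 14.4 and 8.73.

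Among 9 transport and lipid genes that cycle in rodent intestine, 1 was higher and 3 lower, 5 lay between, and the median log2 fold was -0.25, beside the same 32.3% called among all genes. The sodium-proton exchanger gene Slc9a3 was 33.9 in the control against 66.5 in the knockout. The lower ones were the fatty acid transporter gene Cd36 (14.7 and 6.34), the fructose transporter gene Slc2a5 (94.3 and 52.5) and the glucose transporter gene Slc2a2 (75.4 and 42.5). The sodium-glucose transporter gene Slc5a1 was 474 and 399, and the peptide transporter gene Slc15a1 was 199 and 168, both between the thresholds.

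**Figure D4:**
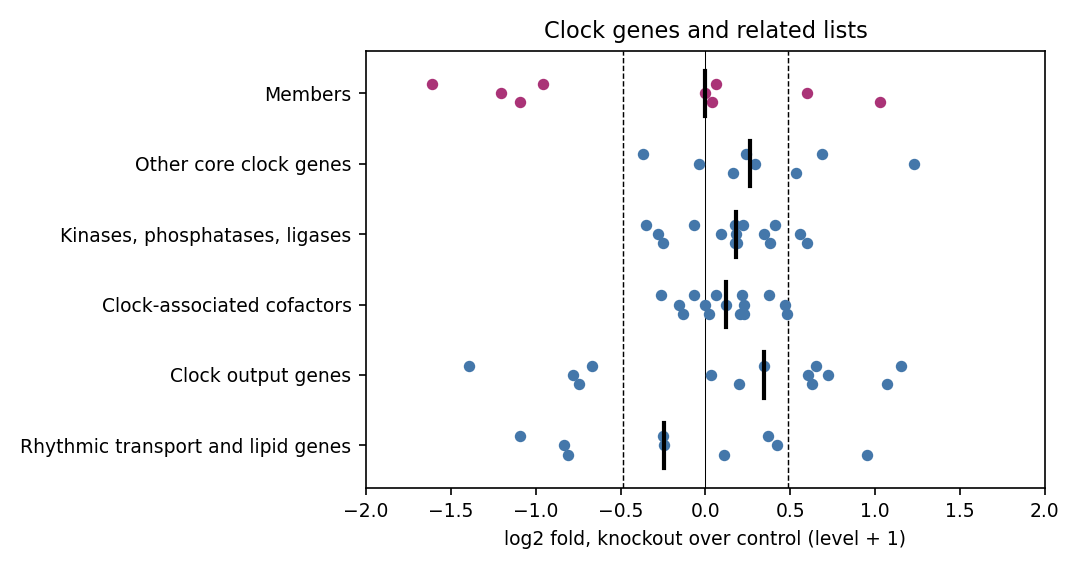
Log2 fold of the knockout over the control on level plus 1 (x axis) for each included gene of 6 lists (rows), with members and core clock genes removed from the lower 4; thick bars mark list medians and dashed lines 1.4-fold. Points of the members, of the output list and of the transport and lipid list lie beyond both lines, while no cofactor does.

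Levels of cell type markers differed between the libraries. All 9 epithelial markers had a row, and their summed level was 5636 in the control against 5848 in the knockout. Of these, 2 were higher (Krt18, 250.3 and 488, and Krt20, 435 and 615), 1 was lower (Cdx2, 82.9 and 53.8) and 6 lay between. The 8 enterocyte markers summed to 15569 and 21002, but 2 were higher (Fabp1, 3018 and 6049, and Rbp2, 2862 and 5321), 2 were lower (Lct, 279 and 81.0, and Sis, 662 and 434) and their median log2 fold was 0.01. The summed level of 6 stem cell markers was 689 and 144, that of 6 Paneth cell markers 13927 and 7841, that of 6 T cell markers 911 and 407, and that of 4 B and plasma cell markers 63.6 and 257. The 5 myeloid markers summed to 34.7 and 30.5. Cd68 (0.266 and 3.02) and Lyz2 (4.54 and 10.5) were higher, and Fcer1g (26.3 and 13.7) and Itgax (2.47 and 1.34) were lower. Cd68 was below 1 in the control and was included only through the knockout, which fixed its direction. The median log2 fold of the myeloid markers, 0.45, counts Cd68 and so describes little. The 5 fibroblast markers summed to 25.6 and 26.1, with Col3a1 (4.25 and 8.18) and Lum (0.387 and 1.06) higher and none lower. Lum was included only through the knockout. The 4 smooth muscle markers summed to 2.02 and 5.55, and all 4 were below 1 in the control. Acta2 and Tagln were included only through the knockout, and Des and Actg2 were below 1 in both libraries. The 3 red cell markers summed to 7.50 and 16.4, with Hbb-bs and Hba-a1 higher and Alas2 (1.04 and 0.474) between the thresholds. The 3 neutrophil markers summed to 2.58 and 12.3, with S100a9 and Ly6g listed at 0 in the control and so included only through the knockout. None of the 5 endothelial and none of the 5 enteric neuron and glia markers had a row. The part of these marker levels in the clock gene values was not tested.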

How the data were processed

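RNA from 1 control and 1 Myh9 knockout mouse was sequenced. Per the submitters' processing notes, the tools named are HISAT2 and StringTie and the build is mm10; versions and roles are not given. The deposited table gives 1 signal value per gene and sample, matched to samples by the animal number in the table and the title. The smallest deposited value was 1. Subtracting 1 left every value with at most 6 significant digits, which 1118 control and 1218 knockout values exceed as deposited, so a 1 that the authors appear to have added was removed. The deposited ratio, the authors' fold of knockout over control, matched both columns to within a relative 1.22e-07. Sequencing depth is unknown; levels totalled 671114 (control) and 634492 (knockout), and no counting interval could be given.

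Log2 folds used a pseudocount of 1, for the 12152 of 12631 rows that reached 1 in either library, and calls used a 1.4-fold threshold (Python 3.11.15, pandas 2.3.3). The calling step was run on simulated data with known folds and no noise, which checks its arithmetic only and not the error of a call. The members and gene lists were chosen with earlier results of these data known. All members and the core clock genes kept in the lists are named, some genes of the lists being not reported here; from other lists, at most 4 called genes per direction by size, with a few of known role. Positions came from GENCODE M21, and the letters of the ROR element core and of the variant E-box were chosen with the sequences in view. Alternatives were pseudocounts of 0.1 and 0, no filter, a minimum of 5, a 2-fold threshold and 3 rescalings.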

Additional observations from a re-analysis of the deposited data

How the results depend on the processing

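The 4 lower members kept that call under both other pseudocounts, without a filter, at a minimum of 5 and under all 3 rescalings; at a 2-fold threshold, 3 remained and Nr1d2 (log2 fold -0.96) did not. The 2 higher members kept theirs except at a 2-fold threshold, where 1 was higher and Per1 (0.60) was not, and at a minimum level of 5, which neither Cry1 nor Per1 reached, so that 0 were higher. At that minimum the median log2 fold of the 6 remaining members was -1.025, by the removal of Cry1, Per1 and Per2. No call of a member changed sign. Rescaling the knockout to equal totals, leaving out mitochondrially encoded genes and the top 20 (a factor of 1.079), moved the split of all genes from 1936 higher and 1985 lower to 2479 higher and 1558 lower, and the member median to 0.099. Rescaling by the upper quartile moved the split the other way, to 1690 higher and 2220 lower. Leaving out Arntl2, chosen after seeing the data, gave the other core clock genes a median of 0.237. Cry2 passed 1.4-fold only with no pseudocount (0.49). At a 2-fold threshold, Npas2 (0.53) and Nfil3 (0.69) were no longer called. No paired analysis was possible because each group has 1 sample, and no replicate could be left out. Without replicates or counts, error at low levels, where Dbp, Cry1, Per1 and Per2 lie, is unknown.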

Other observations

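Per1 also belongs to immediate early and glucocorticoid-responsive genes, and these were described from lists chosen with earlier results of these data known. Among all included genes, 15.9% were higher in the knockout and 16.3% lower, and the counts below are a description beside those shares. Of 11 other immediate early and cAMP-responsive genes with a row, 4 were higher in the knockout, none was lower and 7 lay between the 1.4-fold thresholds. Egr1 was 1.31 in the control against 6.62 in the knockout, Fos was 21.6 and 43.6, and Junb was 26.9 and 47.4. Nr4a1, the other higher one, was below 1 in the control at 0.399 and was included only through the knockout.

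Of 12 other glucocorticoid-responsive genes with a row, 5 were higher, 3 were lower and 4 lay between. Fkbp5, a chaperone gene of the receptor complex, was 6.78 in the control against 42.2 in the knockout, 5.55-fold higher, and Errfi1 was 4.49 and 18.9. The receptor gene Nr3c1 was 27.0 and 13.7, and Tsc22d3, which encodes GILZ, was 14.4 and 8.73. Of 11 genes that respond to fasting and feeding, 4 were higher and 2 were lower. Scd1, a fatty acid desaturase gene, was 1.01 in the control against 4.48 in the knockout, and Angptl4, an inhibitor of lipoprotein lipase, was 11.0 and 5.39.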
